A study of Mus musculus with 18 samples.

Results

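The urea cycle and glutamine zonation genes are 10 genes that handle ammonia in the liver, chosen by name and matched to Ensembl gene IDs among 34937 genes counted. They were Cps1, Otc, Ass1, Asl, Arg1, Nags, Slc25a15, Gls2, Glul and Rhbg, and all 10 were measured and tested. Relative to group 12, 7 of them fell in 12ON livers, where 22.6% of all genes tested fell. Only Cps1 rose, where 24% of all rose. Against 12ON, 8 were higher in 3OFF livers and 8 in 7OFF livers, where 15.3% and 21.4% of all genes were higher. With library totals in place of scaling factors, 4 fell in 12ON, where 1403 of all 17789 genes tested fell. Against 12ON, 5 were then higher in 3OFF, where 952 of all were higher. In 7OFF 5 were higher and 1 lower, where 1348 and 8204 of all were called.

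Hepatocytes dispose of ammonia by a pair of routes that lie at opposite ends of the liver lobule. In the wide periportal zone, mitochondria join ammonia and bicarbonate into carbamoyl phosphate, and the urea cycle carries the nitrogen on to urea. In the thin rim of cells around the central vein, glutamine synthetase takes up ammonia that escaped urea synthesis and stores it as glutamine. That rim is known to depend on Wnt and beta-catenin signalling.

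Poly-A libraries were made from liver RNA of 18 mice, 3 in each of 6 groups. All mice were injured with carbon tetrachloride at 0.5 µL per g of body weight, a toxin that kills hepatocytes near the central vein. MycER joins the transcription factor MYC to an estrogen receptor domain that binds hormone, and was switched on by 1 mg of tamoxifen a day. Group 12ON was taken 12 days after injury with MycER active. Groups 1OFF, 2OFF, 3OFF and 7OFF are labelled as 1, 2, 3 and 7 days after injury with MycER not active, and group 12 as 12 days after injury with MycER not active. The labels do not say whether the OFF mice had active MycER earlier, whether group 12 received tamoxifen, which promoter or cell type drives MycER, or the strain, sex and age of the mice. In comparisons of an OFF group with 12ON or 12, the labelled days after injury differ too, and their part cannot be told apart from that of MycER. A tamoxifen dose is labelled for 12ON alone. In all comparisons with 12ON, any part of tamoxifen itself cannot be told apart from that of MycER.

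Libraries held 23.1 to 75.3 M counts on genes. The 6 hepatocyte markers had summed levels, in normalised counts scaled to library size (CPM), between 31368 and 41916 for 12ON, between 44157 and 51471 for 1OFF, between 43661 and 48033 for 2OFF, between 61000 and 86279 for 3OFF, between 72593 and 93768 for 7OFF, and between 119354 and 131943 for group 12. The 6 cholangiocyte markers summed to 184 to 198 CPM in 12ON and 32.1 to 93.4 CPM in group 12. The kidney tubule markers Aqp2 and Slc12a1 were at 0 in every library, and Umod and Slc34a1 had at most 3 counts. Xist, an RNA of the inactive X chromosome, was at 263 to 485 CPM of the library total in 1 library each of 12ON, 2OFF, 3OFF, 7OFF and 12, and at 1.75 CPM or less in the others. Within 2OFF, replicate 2 had the lowest level of all 10 genes, and results that rest on it are given with and without it. The mitochondrial chromosome took 6.42% to 7.11% of the counts in 12ON and 4.80% to 5.25% in group 12. In bulk liver RNA, fewer cells of a type and less RNA per cell cannot be told apart.

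RefSeq promoter windows (GRCm38.p6) were at hand for 5 of the 10 genes, and 3 are shown because each illustrates 1 outcome of a search for short motifs. The letters searched on both strands were CACGTG (an E-box that MYC and other factors can bind), CTTTGAT (the TCF and LEF motif of Wnt signalling), and CAAAGTCCA and CAAAGGTCA (forms of the HNF4A motif). The stretches run 5′ to 3′ over the 250 bases before the RefSeq start, all on the plus strand, at chr2:31470020-31470269 for Ass1, chr11:102145263-102145512 for Nags and chr1:153899679-153899928 for Glul. Capitals mark a match.
Ass1: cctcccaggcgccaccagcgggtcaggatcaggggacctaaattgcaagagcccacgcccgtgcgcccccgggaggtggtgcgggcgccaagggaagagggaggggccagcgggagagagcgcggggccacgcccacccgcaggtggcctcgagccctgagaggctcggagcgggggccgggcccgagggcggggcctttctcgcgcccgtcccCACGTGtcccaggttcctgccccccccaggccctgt
Nags: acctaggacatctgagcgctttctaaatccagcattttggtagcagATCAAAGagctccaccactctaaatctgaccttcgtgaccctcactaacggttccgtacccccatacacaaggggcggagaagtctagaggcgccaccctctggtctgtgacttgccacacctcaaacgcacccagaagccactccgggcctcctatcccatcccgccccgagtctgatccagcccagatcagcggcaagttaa
Glul: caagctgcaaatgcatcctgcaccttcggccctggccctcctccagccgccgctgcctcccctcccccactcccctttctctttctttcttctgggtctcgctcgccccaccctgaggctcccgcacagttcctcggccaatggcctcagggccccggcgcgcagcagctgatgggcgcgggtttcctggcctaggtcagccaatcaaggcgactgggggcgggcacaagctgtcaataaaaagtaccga
The E-box in Ass1 began 36 bases before the start, and an alternative start of Slc25a15, 344 bases inside the gene, had an E-box 77 bases before it. In Nags the match, read as ATCAAAG on the plus strand, began 204 bases before the start. The windows of Glul and Otc and that of the first Slc25a15 start held none of the 4 motifs, and no matches overlapped. Windows extend 50 bases past the start, and of 32851 RefSeq windows 7.15% held CACGTG, 3.73% CTTTGAT, 0.475% CAAAGTCCA and 0.478% CAAAGGTCA. These matches are letters in a window and were not tested for binding.

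The first comparison asked how livers with active MycER differed from livers without it 12 days after injury. Ass1, Asl, Nags, Slc25a15, Gls2, Glul and Rhbg had lower RNA in 12ON, Cps1 had higher RNA, and Otc and Arg1 did not pass the test. A gene was called at a p, adjusted over 17789 genes by the Benjamini-Hochberg method, under 0.05 in edgeR's quasi-likelihood test. By this rule 1 of the 10 genes was higher, where 24% of all genes tested were higher, and 7 were lower, where 22.6% of all were lower. Their median log2 fold change was -0.73, beside -0.00474 over all genes tested.

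Cps1 (chromosome 1, 67123026 to 67231259, GRCm38, as for all gene positions below) encodes carbamoyl phosphate synthetase, the mitochondrial entry enzyme and main control point of the cycle. It had 3189, 2952 and 2994 CPM in 12ON and 1818, 1334 and 1726 CPM in group 12. Every 12ON library lay above every library of group 12. The log2 fold change was 0.91 ± 0.19 (SE, n = 3 mice per group here and below, adjusted p = 0.000999 by edgeR). The share of mitochondrial counts moved with it across these groups, and with a term for that share the log2 fold change was 0.78 (adjusted p = 0.0612).

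Nags (chromosome 11, 102145513 to 102149477) makes N-acetylglutamate, the activator that carbamoyl phosphate synthetase needs. Its libraries had 69.5, 62.9 and 56.1 CPM in 12ON and 99.0, 97.6 and 85.7 CPM in group 12. They did not overlap, and the direction was opposite to that of Cps1, at a log2 fold change of -0.58 ± 0.13 (edgeR adjusted p = 0.00138). Reads were counted without strand, and 443 exonic bases are shared with the antisense gene Gm11586, so reads of that pair cannot be told apart. With library totals in place of scaling factors the difference was -0.09, and with the mitochondrial term it was -0.39, neither of them called.

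Otc (chromosome X, 10252305 to 10321024) encodes ornithine transcarbamylase, which joins carbamoyl phosphate to ornithine. It had 233, 198 and 256 CPM in 12ON and 268, 245 and 247 CPM in group 12, and the groups overlapped. The log2 difference was -0.14 ± 0.17 (95% interval -0.51 to 0.22, edgeR adjusted p = 0.52), and 0.35, the opposite sign, on library totals. Slc25a15 (chromosome 8, 22375554 to 22398621), the carrier that exchanges ornithine and citrulline across the mitochondrial membrane, had 193, 173 and 199 CPM in 12ON and 347, 318 and 366 CPM in group 12. Its 12ON libraries all lay below those of group 12. It fell by 0.87 ± 0.16 on the log2 scale (edgeR adjusted p = 0.000337).

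Of the 3 cytosolic enzymes, Ass1 and Asl fell and Arg1 did not pass the test. Ass1 (chromosome 2, 31470207 to 31520672), argininosuccinate synthase, had 1435, 1298 and 1395 CPM in 12ON and 2365, 1778 and 2729 CPM in group 12. The 12ON libraries were close together and below all of group 12, which spread more widely. Its log2 fold change was -0.74 ± 0.25 (edgeR adjusted p = 0.0237). The call ended without 12 replicate 1 or 3 or without 12ON replicate 2 or 3, at adjusted p = 0.0568, 0.0955, 0.0739 and 0.0561 by edgeR, and at -0.26 on library totals. Of the 50-base stretches of Ass1 exons, 38.6% also occur in the Ass1-like gene Gm5424, and reads that aligned to several places were not counted.

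Asl (chromosome 5, 130011258 to 130029247), argininosuccinate lyase, which releases arginine, had 282, 207 and 262 CPM in 12ON and 545, 421 and 574 CPM in group 12. The groups did not overlap, and Asl fell by 1.03 ± 0.24 on the log2 scale (edgeR adjusted p = 0.00262). The call ended with the mitochondrial term (log2 -0.98, edgeR adjusted p = 0.0726) and in the libraries with low Xist alone (-0.83, adjusted p = 0.0621). Arg1 (chromosome 10, 24915208 to 24927470), arginase, which splits off urea, had 735, 434 and 478 CPM in 12ON and 762, 879 and 905 CPM in group 12. The highest 12ON library lay just under the lowest of group 12. The log2 difference of -0.63 ± 0.27 did not pass (edgeR adjusted p = 0.0669), but it passed by DESeq2 (adjusted p = 0.0385), in the fit of these 2 groups alone (edgeR adjusted p = 0.0433), with the replicate block (-0.68, adjusted p = 0.0236) and without 12ON replicate 1 (-0.89, adjusted p = 0.0206).

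Gls2 (chromosome 10, 128194457 to 128210004), the liver-type glutaminase, frees ammonia from glutamine in periportal mitochondria. It had 181, 166 and 192 CPM in 12ON and 369, 212 and 312 CPM in group 12. The groups did not overlap, and the gap to the second replicate of group 12 was small. Its log2 fold change was -0.73 ± 0.28 (edgeR adjusted p = 0.042). The call ended without 12 replicate 1 or 3 or any single 12ON library, with adjusted p of 0.0704 to 0.165 by edgeR, and at -0.25 on library totals.

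Glul (chromosome 1, 153899944 to 153909723), glutamine synthetase, is the classical marker of the perivenous rim. Its CPM were 290, 176 and 265 in 12ON and 694, 570 and 703 in group 12. All 12ON libraries lay far below all of group 12. Glul fell by 1.43 ± 0.23 on the log2 scale (edgeR adjusted p = 0.000146). Rhbg (chromosome 3, 88242874 to 88254709), a membrane channel for ammonia on perivenous hepatocytes, had 2.99, 1.21 and 2.13 CPM in 12ON and 13, 11.8 and 10.9 CPM in group 12. It showed the largest fold change of the 10, at -2.49 ± 0.42 (edgeR adjusted p = 0.000197), on 55 to 519 counts per library over the series. Rhbg shares 1190 exonic bases on the same strand with Gm38392, and reads were counted for each gene they overlapped, so reads of that pair cannot be told apart. With the mitochondrial term the fold change was -1.74.

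**Figure D1:**
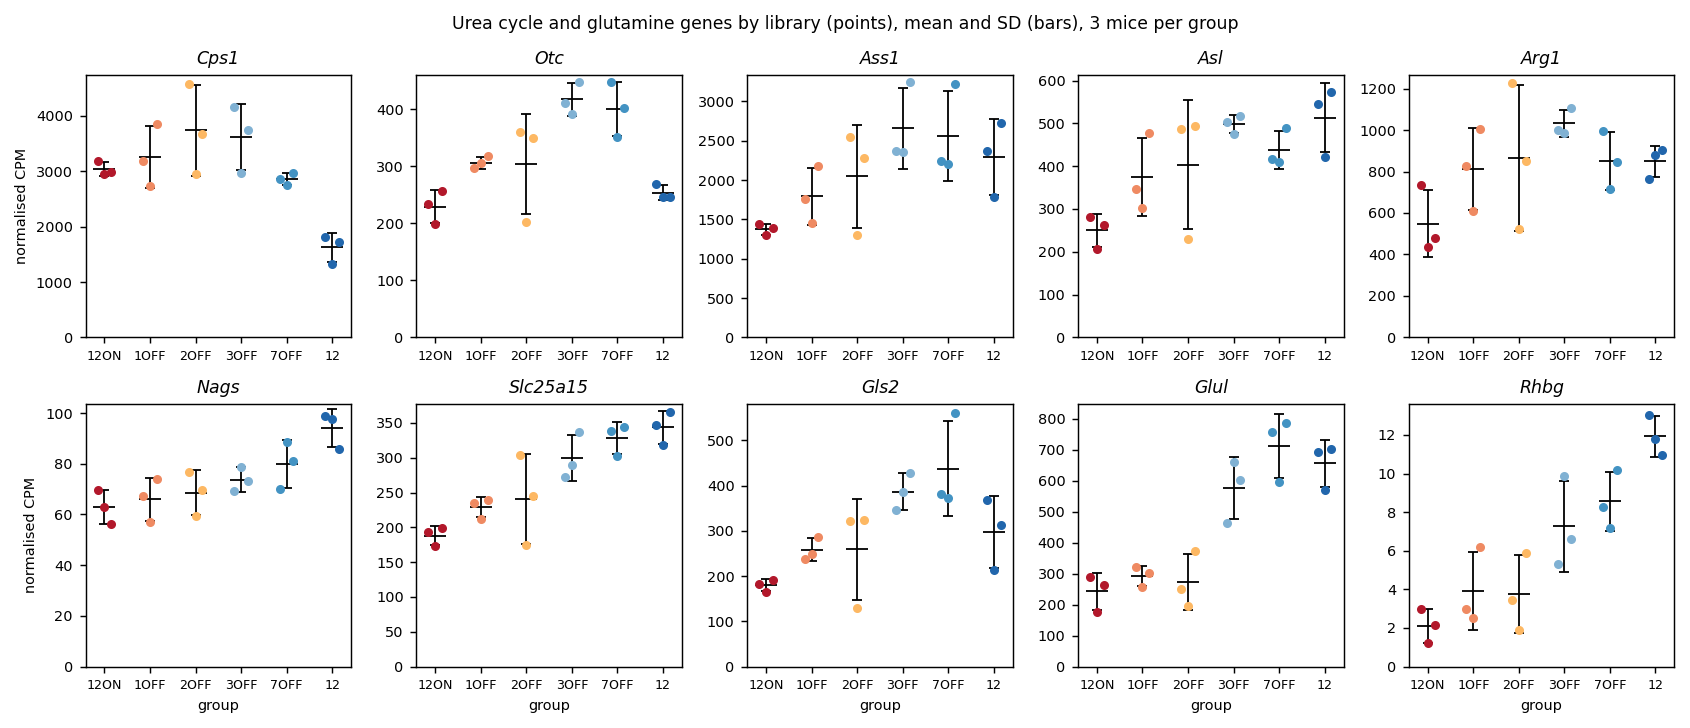
Normalised CPM of each of the 10 genes (vertical axis, from 0) by group (horizontal axis), with 1 point per library and bars for the mean and SD of 3 mice. Cps1 is lowest in group 12, Glul and Rhbg are lowest in 12ON, 1OFF and 2OFF, and the 2OFF points are the most spread in most panels.

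All 6 hepatocyte markers were lower and all 6 cholangiocyte markers higher in 12ON, by the same test and with the summed levels given above. Their part in the differences of the 10 genes was not tested. Cps1, itself a hepatocyte gene, was higher while these hepatocyte markers were lower, and what sets them apart was not tested.

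The second comparison set each OFF group against 12ON. After 1 and 2 days none of the 10 genes passed the test, although the fitted difference was above 0 for all 10 in both groups. In 1OFF against 12ON, 0.00562% of all genes tested were higher and 0% lower by edgeR. In 2OFF against 12ON, 0% were higher and 0% lower. At an unadjusted p under 0.05 there were 2 of the 10 genes and 2568 of all genes in 1OFF, and 5 of the 10 and 3039 of all in 2OFF. DESeq2 also called none of the 10, and 526 and 953 genes in all.

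In 1OFF, Otc had 296, 305 and 317 CPM, against 233, 198 and 256 CPM in 12ON. Gls2 had 239, 249 and 287 CPM in 1OFF, against 181, 166 and 192 CPM in 12ON. For both genes the 1OFF libraries lay above all 12ON libraries. The log2 differences were 0.42 ± 0.17 for Otc and 0.52 ± 0.28 for Gls2, with edgeR adjusted p of 0.28 and 0.413. Glul had 320, 258 and 301 CPM in 1OFF, against 290, 176 and 265 CPM in 12ON, and overlapped (log2 0.27 ± 0.23, 95% interval -0.22 to 0.75). Cps1 had 3184, 2739 and 3856 CPM in 1OFF, within and around the 12ON range (log2 0.10 ± 0.19, 95% interval -0.30 to 0.49).

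The 2OFF livers did not behave as one group for these genes. Replicate 2 had the lowest level of all 10 genes among the 2OFF libraries. The library numbered 2 was also lowest for 9 of the 10 genes in 12ON and 8 in 1OFF. In 3OFF, 7OFF and group 12 it was lowest for 5, 9 and 7. The share of all genes tested that was lowest in each library was not counted. The 10 genes also vary together within groups (r of 0.89 for Ass1 and Asl), so these counts are not independent. The labels do not say whether libraries of the same number belong together. Ass1 had 2547, 1306 and 2280 CPM in 2OFF, against 1435, 1298 and 1395 CPM in 12ON, so that replicate 2 fell inside the 12ON range and the others far above it. Asl had 487, 230 and 494 CPM in 2OFF, against 282, 207 and 262 CPM in 12ON. Gls2 had 323, 130 and 324 CPM in 2OFF, against 181, 166 and 192 CPM in 12ON, and replicate 2 was below every 12ON library. Without 2OFF replicate 2, edgeR called 6 of the 10 genes higher, namely Otc (log2 0.62), Ass1 (0.80), Asl (0.95), Arg1 (0.91), Slc25a15 (0.53) and Gls2 (0.83), and 1505 genes in all. Glul (249, 196 and 374 CPM) and Rhbg (3.46, 1.89 and 5.88 CPM) of the 2OFF livers were not among those called.

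By 3 days most of the 10 genes had passed the test. Of the 10, 8 were higher in 3OFF than in 12ON, where 15.3% of all genes tested were higher, and 0 were lower, where 17% of all were lower. Their median log2 fold change was 0.93, beside 0.01 for all genes. Glul had 464, 660 and 602 CPM in 3OFF, against 290, 176 and 265 CPM in 12ON. This was the first OFF group in which every Glul library lay above all of 12ON, with a log2 fold change of 1.24 ± 0.23 (edgeR adjusted p = 0.00106). Rhbg had 5.31, 9.87 and 6.61 CPM in 3OFF, against 2.99, 1.21 and 2.13 CPM in 12ON (log2 1.78 ± 0.41, edgeR adjusted p = 0.00431). Both perivenous genes were therefore higher, and so was periportal Gls2, with 346, 386 and 428 CPM in 3OFF (log2 1.11 ± 0.28, edgeR adjusted p = 0.00742).

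Among the cycle enzymes, Otc had 411, 391 and 448 CPM in 3OFF, against 233, 198 and 256 CPM in 12ON (log2 0.86 ± 0.17, edgeR adjusted p = 0.00177). Ass1 had 2368, 2355 and 3244 CPM in 3OFF, with a log2 fold change of 0.95 ± 0.25 (edgeR adjusted p = 0.00924). Asl had 503, 475 and 518 CPM (log2 0.99 ± 0.24), and Slc25a15 273, 290 and 337 CPM (log2 0.67 ± 0.16). For each of these genes all 3OFF libraries lay above every 12ON library. The share of all genes tested that had no overlap was not counted, here or in the other comparisons. Arg1 had 1001, 988 and 1106 CPM in 3OFF, against 735, 434 and 478 CPM in 12ON (log2 0.91 ± 0.27, edgeR adjusted p = 0.0177), and the call ended without 12ON replicate 2 or 3 or 3OFF replicate 3 (adjusted p = 0.0903, 0.0712 and 0.0536). Nags had 69.1, 78.8 and 73.4 CPM in 3OFF and Cps1 4157, 2976 and 3746 CPM, and both overlapped 12ON (edgeR adjusted p = 0.169 and 0.318). On library totals the calls of Ass1 (0.62, adjusted p = 0.0556), Slc25a15 (0.35, 0.0749) and Arg1 (0.59, 0.0591) ended. In the libraries with low Xist alone, with 2 mice in each of these groups, only Glul of the 10 was called and 1972 genes in all. The log2 fold changes of the other 7 called genes were then 0.52 to 1.57, with edgeR adjusted p of 0.0575 to 0.146. All 6 hepatocyte markers and all 5 sinusoidal endothelial markers were higher and all 6 cholangiocyte markers lower in 3OFF than in 12ON, and their part in these differences was not tested.

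The genes called in 7OFF included Nags and not Arg1. Of the 10, 8 were higher in 7OFF than in 12ON, where 21.4% of all genes tested were higher, and 0 were lower, where 22.7% of all were lower. The median log2 fold change was 0.80, beside 0.01 for all genes. Glul had 758, 594 and 787 CPM in 7OFF, against 290, 176 and 265 CPM in 12ON (log2 1.55 ± 0.23, edgeR adjusted p = 8.95e-05). Rhbg had 8.28, 7.19 and 10.2 CPM in 7OFF, with a log2 fold change of 2.01 ± 0.41 (edgeR adjusted p = 0.0011). Gls2 had 381, 372 and 560 CPM in 7OFF, with a log2 fold change of 1.29 ± 0.28 (edgeR adjusted p = 0.00176). Gls2, Glul and Rhbg had the largest fold changes of the 10, and the 7OFF libraries of each lay above all 12ON libraries.

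Otc had 447, 351 and 402 CPM in 7OFF (log2 0.80 ± 0.17), Slc25a15 339, 302 and 344 CPM (0.80 ± 0.16), Ass1 2238, 2210 and 3215 CPM (0.89 ± 0.25) and Asl 416, 409 and 488 CPM (0.80 ± 0.24). All of these libraries lay above every 12ON library. The Asl call ended without 12ON replicate 2 (log2 0.67, edgeR adjusted p = 0.0699), on library totals (0.40, adjusted p = 0.163), with the mitochondrial term (0.77, adjusted p = 0.0546) and in the libraries with low Xist alone (0.60, adjusted p = 0.16). The Ass1 call ended on library totals (0.49, edgeR adjusted p = 0.112) and in the libraries with low Xist alone (0.65, adjusted p = 0.087). Nags had 69.9, 88.6 and 81.2 CPM in 7OFF, against 69.5, 62.9 and 56.1 CPM in 12ON, and the lowest 7OFF library was barely above the highest of 12ON. Its log2 fold change of 0.35 ± 0.13 passed (edgeR adjusted p = 0.0342), but not without 12ON replicate 2 or 3 or 7OFF replicate 2 or 3 (adjusted p = 0.091, 0.16, 0.137 and 0.074), and it was -0.065 on library totals. Arg1 had 995, 714 and 847 CPM in 7OFF and overlapped 12ON (log2 0.63 ± 0.27, edgeR adjusted p = 0.0675), but it passed by DESeq2 (adjusted p = 0.0399), with the replicate block (0.65, edgeR adjusted p = 0.0304) and without 12ON replicate 1 (0.88, adjusted p = 0.0241). Cps1 had 2854, 2752 and 2969 CPM in 7OFF, against 3189, 2952 and 2994 CPM in 12ON. The difference was not called (log2 -0.09 ± 0.19, 95% interval -0.49 to 0.30, edgeR adjusted p = 0.72), but on library totals it was -0.51 and called lower (adjusted p = 0.0295). Of the markers, 5 of 6 for hepatocytes and 4 of 5 for sinusoidal endothelium were higher and 6 of 6 for cholangiocytes lower in 7OFF than in 12ON, and their part was not tested.

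**Figure D2:**
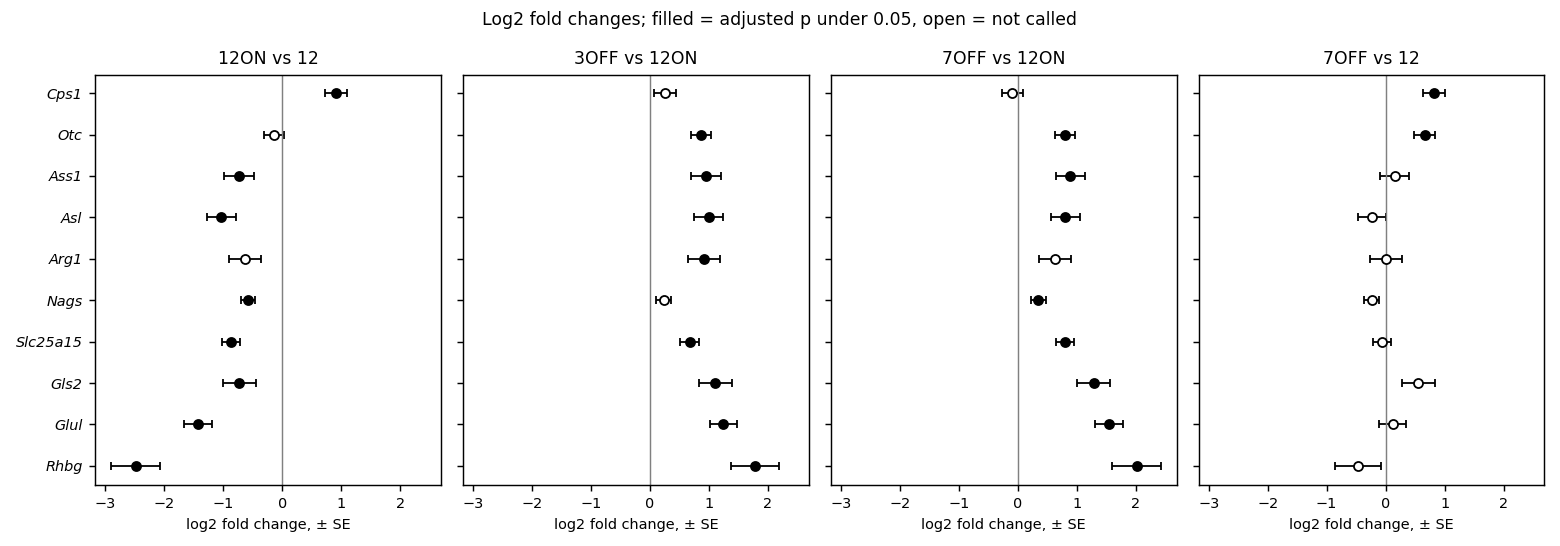
Log2 fold changes with their standard errors (horizontal axis) of the 10 genes (vertical axis) in 12ON against 12, 3OFF against 12ON, 7OFF against 12ON and 7OFF against 12. Filled points passed an adjusted p of 0.05 by edgeR. In 7OFF against 12 the filled points are Cps1 and Otc.

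Each OFF group was also set against group 12, to see how far these genes lay from livers without active MycER at 12 days. These comparisons share their libraries with the earlier ones and are not independent of them. At 1 day, 1 of the 10 genes was higher than in group 12, where 17.1% of all genes were higher, and 4 were lower, where 16.3% of all were lower. At 2 days the counts were again 1 and 4, where 18.1% and 17% of all genes were called. The higher gene was Cps1 in both, at log2 1.00 ± 0.19 and 1.20 ± 0.19. The lower genes were Nags, Slc25a15, Glul and Rhbg in both, Glul at -1.16 ± 0.23 and -1.26 ± 0.23 and Rhbg at -1.63 ± 0.41 and -1.67 ± 0.40. The Slc25a15 call at 2 days ended without 12 replicate 3 or 2OFF replicate 2 (edgeR adjusted p = 0.0585 and 0.0661). Without 2OFF replicate 2, Otc was also called higher at 2 days (0.47, edgeR adjusted p = 0.0111), as it was with all libraries on library totals (0.60). With the mitochondrial term none of these calls but that of Cps1 at 2 days held. The log2 fold changes at 1 and 2 days were then -0.32 and -0.26 for Nags, -0.62 and -0.55 for Slc25a15, -0.98 and -1.07 for Glul and -0.89 and -0.83 for Rhbg, and 0.88 for Cps1 at 1 day.

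At 3 days 2 of the 10 genes were higher than in group 12, where 9.47% of all genes were higher, and 0 were lower, where 7.95% of all were lower. The higher ones were Cps1 (log2 1.16 ± 0.19) and Otc (0.72 ± 0.17, edgeR adjusted p = 0.0108). This Otc call ended with the mitochondrial term (0.66, edgeR adjusted p = 0.142) and in the libraries with low Xist alone (0.65, adjusted p = 0.0918). At 7 days the same pair was higher, where 2.47% of all genes were higher, and 0 were lower, where 3.31% of all were lower. Cps1 had 2854, 2752 and 2969 CPM in 7OFF, against 1818, 1334 and 1726 CPM in group 12 (log2 0.81 ± 0.19, edgeR adjusted p = 0.0207). Otc had 447, 351 and 402 CPM in 7OFF, against 268, 245 and 247 CPM in group 12 (log2 0.66 ± 0.17, edgeR adjusted p = 0.0375). Neither gene overlapped between the groups. The Cps1 call ended without 12 replicate 2 or 7OFF replicate 1 (adjusted p = 0.071 and 0.0583), and the Otc call ended whichever of the 6 libraries was left out (adjusted p = 0.0523 to 0.126). Both calls also ended in the fit of these 2 groups (edgeR adjusted p = 0.117 for Cps1 and 0.0846 for Otc). The same held with the mitochondrial term (0.0739 and 0.1035) and in the libraries with low Xist alone (0.0888 and 0.131).

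For the other 8 genes no difference between 7OFF and 12 was detected, and the intervals show how large one could be. Glul differed by log2 0.12 ± 0.23 (95% interval -0.36 to 0.60) and Slc25a15 by -0.07 ± 0.16 (-0.40 to 0.26). Arg1 differed by 0.00 ± 0.27 (-0.56 to 0.57), and Ass1 by 0.16 ± 0.25 (-0.37 to 0.68). Asl differed by -0.23 ± 0.24 (-0.74 to 0.28) and Nags by -0.24 ± 0.13 (-0.50 to 0.03). Gls2 and Rhbg had wider intervals. Gls2 differed by 0.56 ± 0.28 (-0.04 to 1.15), with all 7OFF libraries above group 12. Rhbg differed by -0.48 ± 0.39 (-1.31 to 0.36), with all 7OFF libraries below group 12.

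Levels of different genes were compared by length, as RPKM (normalised CPM per kilobase of exon). In 12ON the order was Ass1 (570 ± 29.2 RPKM, SD, n = 3), Cps1 (548 ± 22.8) and Arg1 (372 ± 110), with Ass1 and Cps1 overlapping. Glul (73.4 ± 18), Slc25a15 (54.5 ± 3.93), Otc (54.1 ± 6.83), Asl (51.9 ± 8.01) and Gls2 (51.7 ± 3.76) followed, each overlapping the next. Nags (22.1 ± 2.36) and Rhbg (1.09 ± 0.46) were lowest and stood apart. In group 12 the order was Ass1 (949 ± 199 RPKM), Arg1 (575 ± 51.5), Cps1 (293 ± 46.3) and Glul (197 ± 22.4), and these 4 did not overlap with the next. Asl (106 ± 16.9), Slc25a15 (99.6 ± 6.96), Gls2 (85.8 ± 22.8) and Otc (59.7 ± 3.04) came after, each overlapping the next, and then Nags (33.2 ± 2.59) and Rhbg (6.16 ± 0.54). Cps1 thus stood above Arg1 in 12ON and below it in group 12.

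Ratios within a library do not depend on how libraries are scaled, and are given as a description with no test. The log2 ratio of Cps1 to Glul counts was 3.67 ± 0.34 in 12ON, 3.47 ± 0.19 in 1OFF, 3.80 ± 0.46 in 2OFF, 2.66 ± 0.49 in 3OFF, 2.01 ± 0.17 in 7OFF and 1.30 ± 0.08 in group 12 (SD, n = 3 each). Every library of 12ON, 1OFF and 2OFF lay above every library of the other 3 groups, and the 7OFF libraries stayed above group 12. Other ratios to Glul separated the groups less. Arg1 to Glul was 1.16 ± 0.27 in 12ON, 0.86 ± 0.26 in 3OFF, 0.25 ± 0.14 in 7OFF and 0.37 ± 0.25 in group 12. Gls2 to Glul was -0.41 ± 0.30, -0.56 ± 0.18, -0.72 ± 0.25 and -1.17 ± 0.26 in these groups. For both ratios, 12ON overlapped 3OFF, and 7OFF overlapped group 12. The log2 ratio of Otc to Cps1 was -3.74 ± 0.18 in 12ON, -3.40 ± 0.22 in 1OFF, -3.65 ± 0.24 in 2OFF, -3.11 ± 0.21 in 3OFF, -2.84 ± 0.15 in 7OFF and -2.67 ± 0.20 in group 12. Every library of 12ON lay below every library of 3OFF, 7OFF and group 12, and 7OFF overlapped group 12.

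**Figure D3:**
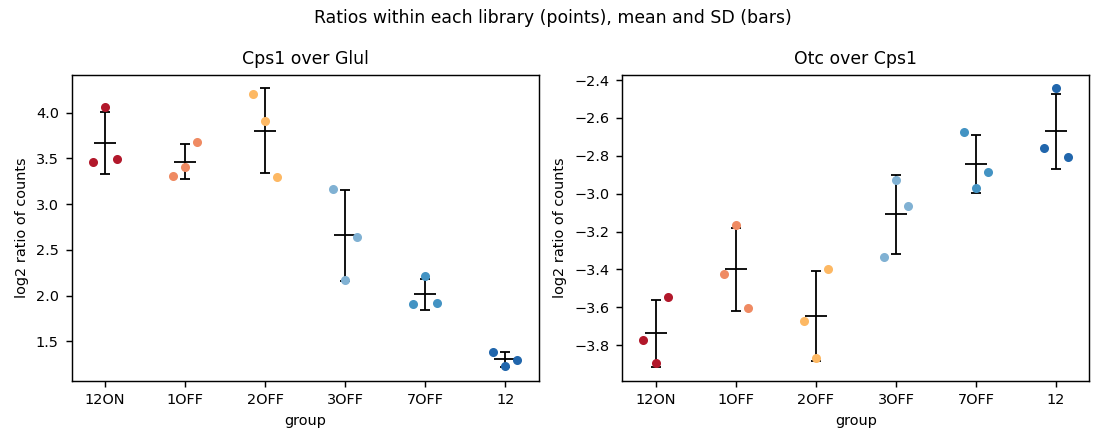
Log2 ratios of counts within each library (vertical axes) of Cps1 to Glul and of Otc to Cps1, by group (horizontal axis), with 1 point per library and bars for the mean and SD of 3 mice. The Cps1 to Glul ratio is lowest in group 12 at 1.30, and the Otc to Cps1 ratio is lowest in 12ON at -3.74.

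Other genes of ammonia and zonation were taken from lists chosen with earlier results of these data known. Of 18 perivenous genes, 14 were lower and 0 higher in 12ON than in 12, where 22.6% and 24% of all genes were called, and the median of the list was -1.32 on the log2 scale. On library totals 10 were lower and 2 higher, where 1403 and 9130 of all genes were called. The median of the list was then -0.84, beside 0.49 for all genes. Among the lowest p were those of Tbx3, a transcription factor of the Wnt programme (log2 -1.95 ± 0.25), Lect2 (-1.85 ± 0.27) and Rgn, an enzyme of the vitamin C pathway (-1.68 ± 0.26). In 3OFF against 12ON 11 of the 18 were higher and 0 lower, where 15.3% and 17% of all genes were called. In 7OFF 14 were higher and 0 lower, where 21.4% and 22.7% of all were called, with a median of 1.35. On library totals 10 were higher and 0 lower in 3OFF, where 952 and 6526 of all genes were called. In 7OFF 10 were then higher and 2 lower, where 1348 and 8204 of all were called, with a median of 0.94. Against group 12, none of the 18 passed in 7OFF, and the median was -0.02. Glul and Rhbg were likewise lower in 12ON than in 12 and higher in 3OFF and 7OFF than in 12ON.

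The 16 periportal genes split, with 6 higher and 7 lower in 12ON than in 12, where 24% and 22.6% of all genes were called. The median of the list was -0.36. On library totals it was 0.11, beside 0.49 for all genes. Among the lower were Apof (log2 -1.04 ± 0.15), the protease gene Ctsc (-1.54 ± 0.25), Pigr, the receptor that carries immunoglobulin A into bile (-2.18 ± 0.39), and Hal, the histidine-degrading enzyme (-1.94 ± 0.37). Among the higher were Hsd17b13, a lipid droplet enzyme (1.38 ± 0.11), Sdsl (0.83 ± 0.17), Aldh1b1, a mitochondrial aldehyde dehydrogenase (2.43 ± 0.53), and Cdh1, E-cadherin (0.95 ± 0.25). The list thus held genes of both directions. In 7OFF against 12ON 8 of the 16 were higher and 3 lower, where 21.4% and 22.7% of all genes were called. On library totals 5 were higher and 6 lower, where 1348 and 8204 of all were called.

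Of 18 listed genes of urea and ammonia handling 17 were tested. In 12ON 6 were lower and 1 higher than in 12, where 22.6% and 24% of all genes were called. The median of the list was -0.21. On library totals 3 were lower and 5 higher, where 1403 and 9130 of all genes were called. The median was then 0.29, where the median of all genes stood at 0.49. The lower genes with the smallest p were Aqp9, a channel for water, glycerol and urea (log2 -1.44 ± 0.23), Oat, ornithine aminotransferase (-2.19 ± 0.42), Agmat (-0.74 ± 0.17) and Got1, the cytosolic aspartate aminotransferase (-1.31 ± 0.31). Oat is listed among the perivenous genes too. Got2, the mitochondrial counterpart of Got1, was by contrast higher (0.34 ± 0.11, edgeR adjusted p = 0.0226). In 3OFF against 12ON, 8 of the 17 were higher and 0 lower, where 15.3% and 17% of all genes were called. In 7OFF 7 were higher and 1 lower, where 21.4% and 22.7% of all were called. On library totals 4 were higher and 3 lower in 3OFF, where 952 and 6526 of all genes were called. In 7OFF 2 were then higher and 5 lower, where 1348 and 8204 of all were called.

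Of 15 genes of glutamine uptake and use, 5 were higher and 2 lower in 12ON than in 12, where 24% and 22.6% of all genes were called. The median of the list was -0.19. On library totals it was 0.30, beside 0.49 for all genes. Among the higher were Ctps (log2 2.60 ± 0.20) and Ppat (1.91 ± 0.15), which spend the amide nitrogen of glutamine on CTP and purines, and Gpt2, a mitochondrial alanine aminotransferase (0.68 ± 0.25). The lower were Slc38a3, the hepatocyte glutamine transporter (-1.42 ± 0.24), and Slc3a2, the heavy chain of amino acid exchangers (-0.60 ± 0.13). In 7OFF against 12ON 3 were higher and 6 lower, where 21.4% and 22.7% of all genes were called. On library totals 1 was higher and 8 lower, where 1348 and 8204 of all were called. With scaling factors, Ctps was at -2.21 ± 0.20, Ppat at -1.22 ± 0.14 and Slc38a3 at 1.16 ± 0.24. Ctps and Ppat thus moved opposite to Slc38a3 in both comparisons.

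Of 18 regulators, 10 were lower and 2 higher in 12ON than in 12, where 22.6% and 24% of all genes were called. Their median was -0.51. On library totals 2 were lower and 5 higher, where 1403 and 9130 of all genes were called. The median of the list was then -0.02, beside 0.49 for all genes. Gcgr, the glucagon receptor (log2 -0.58 ± 0.08), Hnf4a, a hepatocyte transcription factor (-0.78 ± 0.13), Nr3c1, the glucocorticoid receptor (-0.54 ± 0.11), and Tcf7l2, a nuclear partner of beta-catenin (-0.47 ± 0.12), were lower. On library totals Hnf4a was at -0.29 and still lower, whereas Gcgr (-0.087), Nr3c1 (-0.051) and Tcf7l2 (0.02) were not called. Ppargc1a, a coactivator of fasting metabolism (1.30 ± 0.24), and Ctnnb1, beta-catenin (0.26 ± 0.10, edgeR adjusted p = 0.0491), were higher. The Ctnnb1 call held on library totals (0.75) but ended with RLE scaling (0.26, edgeR adjusted p = 0.0521). It also ended with the mitochondrial term (0.21, adjusted p = 0.377) and in the libraries with low Xist alone (0.20, adjusted p = 0.253). Against 12ON, 7 of the 18 regulators were higher and 0 lower in 3OFF, where 15.3% and 17% of all genes were called. In 7OFF 7 were higher and 1 lower, where 21.4% and 22.7% of all genes were called. On library totals 5 were higher and 3 lower in 3OFF, where 952 and 6526 of all genes were called. In 7OFF 3 were then higher and 5 lower, where 1348 and 8204 of all were called.

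**Figure D4:**
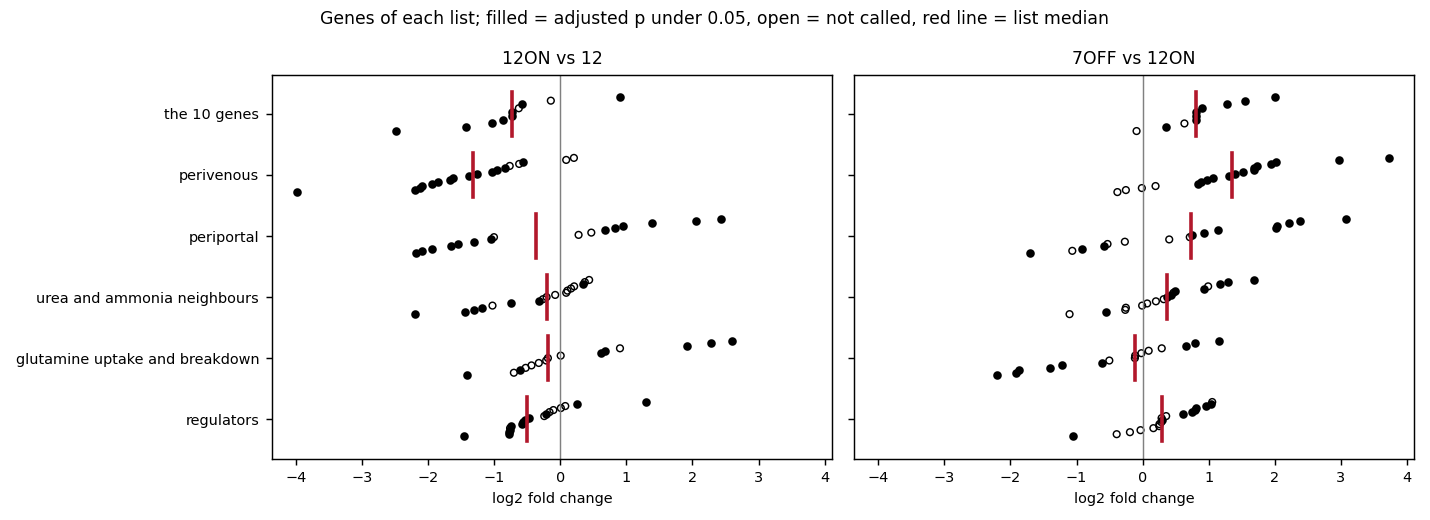
Log2 fold changes (horizontal axis) of the 10 genes and of the genes of 5 lists (rows), 1 point per tested gene, in 12ON against 12 and in 7OFF against 12ON. Filled points passed an adjusted p of 0.05 by edgeR and red lines are medians, which for perivenous genes lie at -1.32 and 1.35.

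Over the 18 libraries, the pattern of Glul was most like those of Xaf1 (Pearson r of log2 CPM 0.98), Aqp9 (0.98), Slc1a2 (0.98), Gulo (0.97) and Slco1b2 (0.97), among 11518 genes of at least 4 CPM on average. Slc1a2, a glutamate transporter, averaged 4.04 CPM in 12ON, 54.1 CPM in 7OFF and 64.4 CPM in group 12. Gls2 was most like Gsto1 (0.96), Sardhos, Ndrg2 (both 0.94), Hpd and Sardh (both 0.93). Cps1 was most like Epb41l4aos (0.94), Tarsl2 and the mitochondrial gene mt-Cytb (both 0.93), Eri2 (0.93) and Ube3b (0.92). Among pairs of the 10 genes, r was 0.93 for Glul and Rhbg, 0.92 for Ass1 and Asl, and -0.40 for Cps1 and Glul, the last of which was 0.23 within groups. The libraries share groups and scaling, so these values describe likeness over the groups and carry no test.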

How the data were processed

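RNA of 18 mouse livers was read as single 50 nt reads of poly-A libraries. Per the submitters' processing notes, Trim Galore, TopHat2 and featureCounts were used on mm10, with no versions there. The deposited values are raw counts per gene, made with featureCounts 1.5.0-p1 on Ensembl 82 exons, per the file headers, with no strand, at least 10 overlapping bases, and a read counted for each gene it overlapped. A read with several alignments was counted nowhere. A reference table named 34599 of 34937 gene IDs.

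The tests ran in edgeR 4.0.16 (R 4.3.3) on the 17789 genes that passed filterByExpr, set to a minimum count of 10. All 18 libraries entered 1 quasi-likelihood fit after TMM scaling (12 residual degrees of freedom), with two-sided F tests and Benjamini-Hochberg adjustment at 0.05. CPM values use these scaling factors. Standard errors are the log2 fold change over the root of F. Library totals of 23.1 to 75.3 M limit precision less than the spread over 3 mice does. Replicates differed by a chi-square per gene of 31.6 to 287, where copies of 1 library would give about 1 or less. On data simulated for 12ON vs 12 (17527 genes), the fit found 40% of 50 genes altered 1.5-fold, 68% at 2-fold, 96% at 4-fold and 100% at 8-fold, and made 4 false calls. For 3OFF vs 12ON (17573 genes) it found 20%, 74%, 94% and 98% at these folds and made 7 false calls.

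The 10 genes and all lists were chosen with earlier results of these data known. All 10 were named. Of each list up to 4 genes per direction with the smallest p in 12ON vs 12 at an adjusted p under 0.05 were named. Some genes the rule picks are not reported here. For likeness, the 5 highest Pearson r of log2 CPM (prior count 2) were named. Markers of stellate cells, sinusoidal endothelium, macrophages, lymphocytes, neutrophils and erythroid cells were also counted. In 12ON vs 12 the higher and lower ones were 3 and 0 of 6, 0 and 5 of 5, 1 and 4 of 6, 0 and 2 of 4, 0 and 0 of 4, and 0 and 0 of 4, in that order. Alternatives were RLE scaling, library totals, other filters, DESeq2 1.42.0, fits of 2 groups, a replicate block, terms for Xist and for the mitochondrial share, and leaving out each library. A fit of the 13 libraries with low Xist was added after the data had been seen.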

Additional observations from a re-analysis of the deposited data

How the results depend on the processing

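Direction and call of the 10 genes were mostly kept. Of 1440 values of single genes under an alternative, 1308 kept both, 79 lost a call, 18 gained one and 35 changed sign. Of 38 calls, 27 were lost under at least 1 alternative, and 1, Nags in 7OFF vs 12ON, changed sign (library totals, -0.065). RLE scaling, the filter of 1 CPM in 3 libraries, the replicate block and the Xist term ended none. The causes were not tested, except that fits with fewer libraries hold fewer mice. Of genes simulated with a 2-fold change, 68% were found in 12ON vs 12 and 74% in 3OFF vs 12ON. Changes of that size can thus be missed in such data, which held far fewer altered genes than the real data.

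Without scaling factors the median of all genes moved by 0.49 in 12ON vs 12, by -0.15, -0.14, -0.32 and -0.42 in 1OFF, 2OFF, 3OFF and 7OFF vs 12ON, and by 0.34, 0.36, 0.17 and 0.07 in the OFF groups vs 12. The split of higher and lower calls was then 9130 and 1403 in 12ON vs 12 (4269 and 4029 with TMM), 952 and 6526 in 3OFF vs 12ON (2726 and 3028), 1348 and 8204 in 7OFF vs 12ON (3801 and 4032), 6774 and 1018 in 1OFF vs 12 (3036 and 2903), 7313 and 1137 in 2OFF vs 12 (3218 and 3018), 2990 and 667 in 3OFF vs 12 (1685 and 1414), and 591 and 361 in 7OFF vs 12 (439 and 588). Of the 10 genes, library totals gave 4 lower in 12ON vs 12, 5 higher in 3OFF vs 12ON, 5 higher and 1 lower in 7OFF vs 12ON, and 2 higher and 2 lower in each of 1OFF and 2OFF vs 12. They gave 0 genes in 1OFF and 138 in 2OFF vs 12ON. Signs changed on library totals for Otc in 12ON vs 12 (0.35), Cps1 in 1OFF (-0.058) and 3OFF (-0.067) vs 12ON, Nags in 1OFF (-0.083), 2OFF (-0.013) and 3OFF (-0.092) vs 12ON, Arg1 (0.27) and Gls2 (0.12) in 1OFF vs 12, Ass1 (0.16) and Gls2 (0.12) in 2OFF vs 12, Asl in 3OFF vs 12 (0.12) and Slc25a15 in 7OFF vs 12 (0.0021). None of these was called with TMM.

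With the mitochondrial term, 0 of the 10 genes were higher and 3 lower in 12ON vs 12, 0 higher and 0 lower in 1OFF vs 12, 0 lower in 2OFF vs 12, 1 higher in 3OFF vs 12 and 0 higher in 7OFF vs 12. Genes called were 4117 in 12ON vs 12, 1847, 1901, 731 and 417 in the OFF groups vs 12, and 0 in 1OFF vs 12ON. Arg1 in 1OFF vs 12 was then 0.24 and Asl in 3OFF vs 12 0.0086. Every library of group 12 had a lower mitochondrial share than every other library. The term thus cannot be fully told apart from a contrast with group 12. With low-Xist libraries alone, 4 of the 10 genes were lower in 12ON vs 12, 1 higher in 3OFF vs 12ON, 5 higher in 7OFF vs 12ON, 1 higher in 3OFF vs 12 and 0 higher in 7OFF vs 12. Genes called were 0 in 1OFF and 1972 in 3OFF vs 12ON, and 1678 in 3OFF and 554 in 7OFF vs 12. Arg1 in 2OFF vs 12 was -0.26 and Asl in 3OFF vs 12 0.017. The Xist term gave 0 genes in 1OFF vs 12ON.

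Fits of 2 groups called 189 genes in 1OFF vs 12ON, 1888 in 3OFF vs 12, and 216 with 0 of the 10 higher in 7OFF vs 12, where Arg1 was -0.0084. DESeq2 called 526 and 953 genes in 1OFF and 2OFF vs 12ON, 1678 in 7OFF vs 12, and 1 of the 10 lower in 3OFF vs 12. The 1 CPM filter called 51 genes in 2OFF vs 12ON.

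The labels do not say whether libraries of the same number belong together, and correlations of deviations cannot exclude it. Of 45 same-numbered pairs of libraries, 10 had a correlation of deviations over 0.1 (median -0.000614), and 8 of 18 libraries correlated best with their own number. The fit with the replicate block called 18 genes in 1OFF vs 12ON and 439 in 2OFF vs 12ON, and Arg1 vs 12 was -0.043 in 2OFF and -0.029 in 7OFF. It gained Arg1 in 12ON vs 12 and in 7OFF vs 12ON.

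Leaving out 1 library, genes called ranged from 0 to 0 in 1OFF vs 12ON, 0 to 1505 in 2OFF vs 12ON, 3708 to 5174 in 3OFF vs 12ON, 1787 to 2521 in 3OFF vs 12 and 350 to 1264 in 7OFF vs 12. Of the 10 genes, those higher ranged from 0 to 6 in 2OFF vs 12ON, 1 to 2 in 2OFF vs 12 and 0 to 1 in 7OFF vs 12. Arg1 vs 12 ranged from -0.25 to 0.11 (1OFF), -0.31 to 0.28 (2OFF) and -0.12 to 0.12 (7OFF). Asl in 3OFF vs 12 ranged from -0.17 to 0.047, Ass1 in 2OFF from -0.35 to 0.063 and in 7OFF vs 12 from -0.043 to 0.30, and Gls2 in 2OFF vs 12 from -0.40 to 0.11. Against 12ON, Cps1 in 1OFF ranged from -0.046 to 0.21, Glul in 2OFF from -0.13 to 0.34 and Nags in 1OFF from -0.022 to 0.17.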
